A study of Mus musculus with 3 samples.

Results

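Interferon-stimulated genes and the immunity GTPases were followed across 3 media in J774A.1, an established line of mouse macrophage-like cells. The set was given by 45 names, which stand for 44 genes because Irgm and Irgm1 name the same gene. A gene belonged to it when its name in the scanner files, or the gene behind its RefSeq accession there, was on the list. The arrays held 69 probes for 43 of these genes, out of 27571 genes in all, and no probe was matched to Xaf1. Older names in the files were Iigp2 for Irgm2, Tgtp for Tgtp1, AI607873 for Ifi207, Trim30 for Trim30a, D11Lgp2e for Dhx58 and Isgf3g for Irf9.

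The cells were kept for 6 h in Earle's Balanced Salt Solution with 10 µM SB202190, in Earle's Balanced Salt Solution alone (EBSS), or in RPMI medium with 10% fetal bovine serum (RPMI). EBSS holds salts and glucose but no amino acids, and SB202190 inhibits the p38 MAP kinases. RNA of the 3 media was hybridised in pairs on 3 two-colour arrays of 1 slide that closed a loop, so each medium was measured on 2 arrays, with a different dye on each. Each medium is 1 sample, since the labels name no separate cultures, and no test between media could be made. Every error below is technical and comes from the loop. The labels name serum for RPMI alone, so effects of amino acids and of serum cannot be told apart between EBSS and RPMI.

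Interferons are secreted proteins that infected or stimulated cells release. Type I interferons bind a receptor of the chains Ifnar1 and Ifnar2, interferon gamma binds one of Ifngr1 and Ifngr2, and both act through Janus kinases and STAT factors. A complex with Stat2 and Irf9 binds the interferon-stimulated response element (ISRE), and the gamma-activated site (GAS) is the other main element in the promoters of target genes. Among these targets in macrophages are the immunity GTPases of the IRG, GBP and MX families, which act against intracellular microbes and viruses, the nucleic-acid-binding PYHIN (p200) proteins, antiviral effectors such as viperin and the 2'-5' oligoadenylate synthetases, cytosolic RNA sensors, and brakes such as Socs1 and Usp18.

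The promoters of members whose values the results below turn on are shown first, as the 250 bases before the RefSeq gene start, in GRCm38.p6 and on the gene's strand. Matches to the ISRE core GAAANNGAA and to the GAS motif TTCNNNGAA, on either strand, are in capitals. Ifi207 (chr1:173741810-173742059, minus strand), Ifi205 (chr1:174031756-174032005, minus strand) and Ifi202b (chr1:173982845-173983094, minus strand) stand for the PYHIN genes. Irgm1 (chr11:48871421-48871670, minus strand), Igtp (chr11:58199306-58199555, plus strand) and Gbp3 (chr3:142559794-142560043, plus strand) are the GTPases with the lowest ratios in EBSS with SB202190 against RPMI. Rsad2 (chr12:26456453-26456702, minus strand) and Irf1 (chr11:53769764-53770013, plus strand) went opposite ways when SB202190 was added to EBSS.
Ifi207: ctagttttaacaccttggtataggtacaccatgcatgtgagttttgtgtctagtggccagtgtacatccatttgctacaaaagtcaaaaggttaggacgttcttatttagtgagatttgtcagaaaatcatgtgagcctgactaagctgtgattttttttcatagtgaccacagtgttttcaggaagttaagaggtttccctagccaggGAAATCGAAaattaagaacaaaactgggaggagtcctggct
Ifi205: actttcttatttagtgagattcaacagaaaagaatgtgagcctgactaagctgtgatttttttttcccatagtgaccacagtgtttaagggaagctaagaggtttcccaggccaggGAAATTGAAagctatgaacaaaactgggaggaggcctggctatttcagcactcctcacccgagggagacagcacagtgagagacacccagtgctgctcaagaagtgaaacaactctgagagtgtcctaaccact
Ifi202b: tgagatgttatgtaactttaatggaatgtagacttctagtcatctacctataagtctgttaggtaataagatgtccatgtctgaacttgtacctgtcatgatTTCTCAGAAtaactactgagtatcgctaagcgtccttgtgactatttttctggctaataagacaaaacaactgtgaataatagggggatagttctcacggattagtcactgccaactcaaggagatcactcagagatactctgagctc
Irgm1: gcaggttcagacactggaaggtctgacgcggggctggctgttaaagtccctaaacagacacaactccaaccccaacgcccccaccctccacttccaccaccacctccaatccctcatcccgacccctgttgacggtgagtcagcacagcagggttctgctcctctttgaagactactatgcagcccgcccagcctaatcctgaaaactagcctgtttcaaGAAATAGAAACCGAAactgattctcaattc
Igtp: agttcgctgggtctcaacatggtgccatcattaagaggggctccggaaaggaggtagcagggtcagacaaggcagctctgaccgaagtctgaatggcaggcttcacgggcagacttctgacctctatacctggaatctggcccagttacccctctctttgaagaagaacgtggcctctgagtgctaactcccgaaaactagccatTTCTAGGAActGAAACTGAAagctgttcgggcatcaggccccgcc
Gbp3: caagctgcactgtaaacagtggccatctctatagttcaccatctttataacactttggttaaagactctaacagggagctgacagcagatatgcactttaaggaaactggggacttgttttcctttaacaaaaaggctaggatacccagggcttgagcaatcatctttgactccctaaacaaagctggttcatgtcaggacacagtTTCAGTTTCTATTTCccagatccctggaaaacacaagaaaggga
Rsad2: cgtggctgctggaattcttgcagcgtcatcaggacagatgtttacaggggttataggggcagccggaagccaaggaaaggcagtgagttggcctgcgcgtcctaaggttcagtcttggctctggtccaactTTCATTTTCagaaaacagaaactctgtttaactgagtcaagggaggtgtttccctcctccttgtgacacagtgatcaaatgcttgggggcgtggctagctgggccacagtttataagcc
Irf1: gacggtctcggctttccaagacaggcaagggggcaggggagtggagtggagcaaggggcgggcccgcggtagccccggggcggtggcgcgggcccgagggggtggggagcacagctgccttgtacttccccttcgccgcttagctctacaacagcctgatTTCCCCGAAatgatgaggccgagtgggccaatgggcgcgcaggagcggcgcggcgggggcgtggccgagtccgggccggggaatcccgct

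In Ifi207 the ISRE core began 41 bases before the start, in Irgm1 a pair of overlapping cores began 30 and 24 bases before it, and in Igtp a GAS match at 45 bases preceded an ISRE core at 34 bases. The Ifi202b window held no ISRE core but a GAS match 148 bases before the start, and Irf1 likewise had a GAS match alone, at 90 bases. RefSeq promoter windows of 300 bases (250 before the start and 50 after it) were found for 33 of the 43 genes. An ISRE core was present in 23 of these 33 genes (69.7%), against 9.76% of the 27025 genes with a window, and a GAS match in 12 of 33 (36.4%), against 9.55%. An ISRE core and a GAS match overlapped each other in 2 members, Bst2 and Ifitm3. A match describes the letters in the window and no more. Members that were high in EBSS and members that were low there both held the ISRE core, as Ifi207 and Igtp show.

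**Figure D1:**
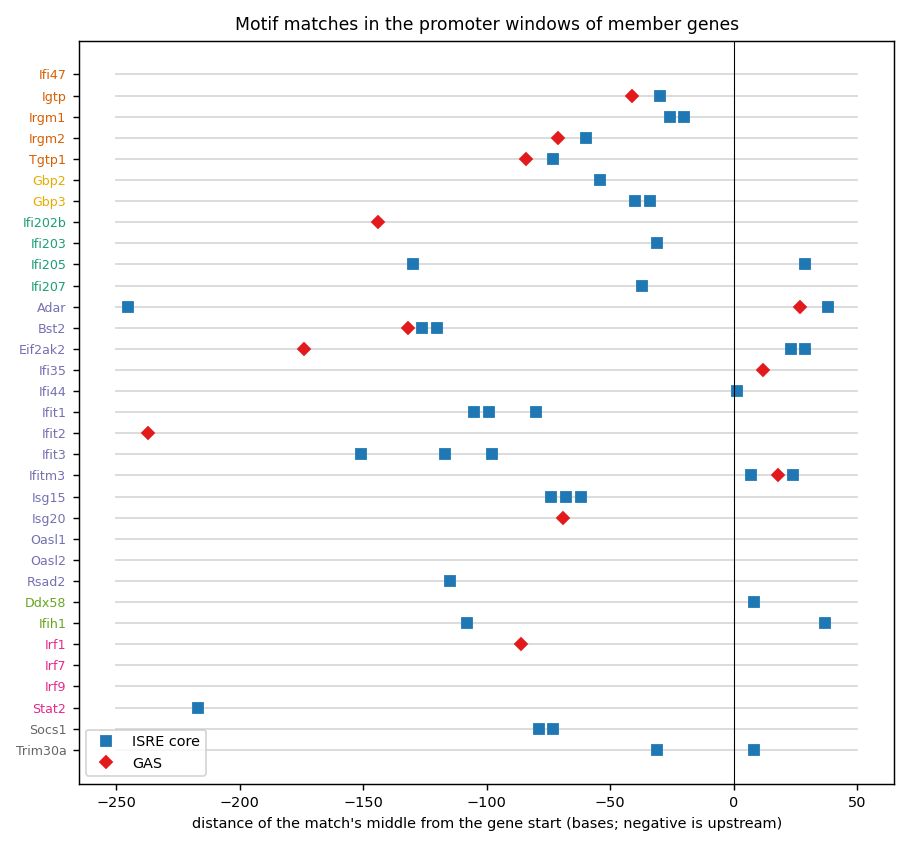
Motif matches in the promoter windows of the 33 member genes with a RefSeq window; the x axis is the distance in bases of the match's middle from the gene start (negative is upstream), squares are ISRE cores and diamonds GAS matches, and label colours mark the gene groups. Of the IRG genes, Igtp, Irgm2 and Tgtp1 share a GAS match just upstream of an ISRE core.

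Levels are log2 normalized intensities per channel, and each ratio is the log2 estimate over the loop. To be counted as higher or lower, a gene needed a ratio of at least 1 in size that reached 0.5 with the same sign both on the array of the compared pair and by way of the other 2 arrays. It also had to be measured, meaning that 1 of the 2 media, or both, was well above background on both of its arrays. Of the 43 genes, 35 were well above background in all 6 channels. The probes of Gbp4, Iigp1 and Tgtp1 were above it in none, and those of Gbp6, Mx1, Ifi47, Ifit1 and Ifit3 in 1 to 5. The probe that the file names Gbp6 carries an accession of Gbp7, and the probe with Gbp6's own accession was above background in no channel. Gbp4, Gbp6, Iigp1, Tgtp1 and Mx1 were therefore measured in no comparison, and Ifi47 was not measured between EBSS with SB202190 and EBSS. All 9 macrophage markers tried were well above background in every channel, while no T cell, B cell, fibroblast or epithelial marker was. Among the macrophage markers, the Fc receptor Fcgr1 was at -1.31 for SB202190 in EBSS and -1.38 in EBSS with SB202190 against RPMI, the factor Spi1 (PU.1) was at -1.09 in the last, and all other ratios of the 9 lay between -0.77 and 0.41. Of single markers of other blood cells, Hba-a1, S100a8 and Tcf4 were, at ratios between -0.94 and 0.03, as was the member Bst2, and the part of any of these in the results was not tested. Across 10777 genes well above background everywhere, the Cy5 and Cy3 readings of a medium correlated at 0.9947 to 0.9972. The technical standard error of the measured members was 0.107 at the median (0.0624 to 0.211). Loess sets the typical ratio of each array to 0: with median centring in its place, the median of all measured genes stood at 0.81 for EBSS against RPMI, at -0.45 for SB202190 in EBSS and at 0.34 for EBSS with SB202190 against RPMI, so all ratios here are relative to the typical gene of like brightness.

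Most members differed little between the media by these ratios, which shrink as a probe nears background. Iigp1 and Gbp4, above background in no channel, averaged 8.51 and 8.59. Gbp2 (9.16), Ifit2 (9.03) and Socs1 (9.04) lay not far above. In EBSS against RPMI the scanner software's ratios were -1.56 for Ifit2 and -0.83 for Socs1, beside -0.38 and -0.26 here. For Gbp2 and Ddx58 they were 0.004 and -0.10. A small ratio of a dim member therefore does not show that it was level. In EBSS against RPMI, 2 of 38 measured members were counted higher (Ifi207 and Ifi204) and 1 lower (Igtp), where 4.48% of all 11874 measured genes were counted higher and 2.82% lower. With SB202190 in EBSS, 1 of 37 was higher than in EBSS (Irf1) and 4 were lower (Ifi207, Ifi204, Ifi202b and Rsad2), against 0.889% and 2.93% of 11692 genes. In EBSS with SB202190 against RPMI, 1 of 38 was higher (Adar, whose probes disagree) and 3 were lower (Irgm1, Igtp and Gbp3), against 1.47% and 2.43% of 11863 genes. The share of members counted higher or lower was therefore close to that of all genes in EBSS against RPMI, while the lower counts with SB202190 made up 10.8% and 7.89% of the measured members. With the scanner software's log ratios the members counted higher and lower were 4 and 4, 2 and 8, and 2 and 11 in the 3 comparisons. Of all genes, 8.10% and 9.21%, 6.69% and 6.60%, and 3.996% and 6.52% were then counted. Under median centring, where the whole distribution shifts as above, the members counted were 10 and 0, 0 and 5, and 1 and 1. The shares of all genes there were 35.8% and 0.194%, 0.154% and 6.58%, and 1.28% and 0.759%. The comparisons are not independent: EBSS enters the first and second, and a medium's own reading moves both ratios it is part of.

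The median member ratio was -0.11 in EBSS against RPMI (all measured genes 0.003), -0.10 for SB202190 in EBSS (all 0.0005) and -0.19 in EBSS with SB202190 against RPMI (all 0.01). Ratios were under 0.5 in size for 25 of 38, 25 of 37 and 24 of 38 members in these comparisons, dim members among them. In the last of them 28 of 38 members lay below 0, as did 5594 of all 11863 genes, and 11 lay at or below -0.50, where 9.45% of all genes did.

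**Figure D2:**
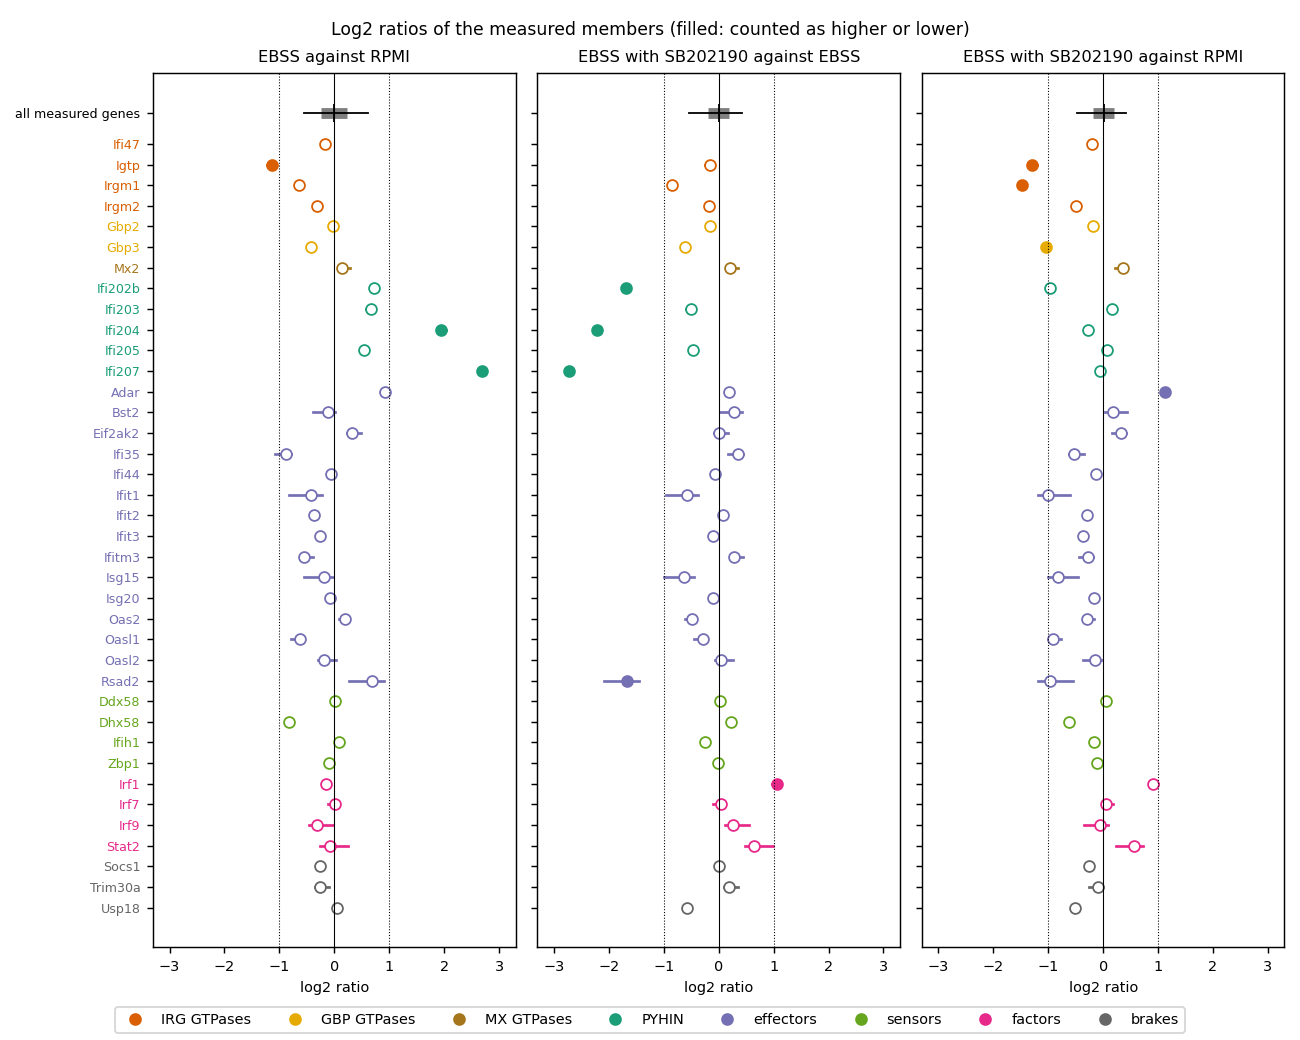
Log2 ratios of the measured members in the 3 comparisons, by gene group; points are loop estimates (filled where counted), the bar through a point joins the array with both media and the path through the other 2, and the top row gives the 10th, 25th, 50th, 75th and 90th percentiles of all measured genes. PYHIN genes lie right of 0 in EBSS against RPMI and left of it with SB202190 in EBSS, and the IRG and GBP genes lie left of 0 in all 3 panels (with median centring Irgm1, Irgm2, Gbp3 and Gbp2 would lie right of 0 in the first and Gbp2 in the last).

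The PYHIN genes had the largest ratios of the set in both comparisons with EBSS. They lie in a cluster on chromosome 1 and encode proteins with a pyrin domain or DNA-binding HIN domains, several of which sense DNA or regulate transcription. All 5 measured members stood higher in EBSS than in RPMI and lower with SB202190 than in EBSS, and these signs held under each other scaling and background correction tried. Ifi205 was read by a probe that also lists Ifi204 and Ifi211, so its signs may not be its own. With the median over all probes of a gene, the ratios of Ifi203 and Ifi205, each with 2 dim probes, shrank to 0.15 and -0.07 for Ifi203 in these comparisons and to about 0 for Ifi205. The group's median was 0.73 in EBSS against RPMI and -1.70 when SB202190 was added to EBSS. Of the 5, Ifi207 and Ifi204 were counted in the first comparison, where 4.48% of all genes were counted higher, and Ifi207, Ifi204 and Ifi202b in the second, where 2.93% were counted lower.

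Ifi207 stood at 10.20 and 10.30 (Cy5 and Cy3) in EBSS with SB202190, at 13.01 and 12.91 in EBSS, and at 10.20 and 10.27 in RPMI. Both EBSS channels lay far above the other 4, which overlapped. Its ratio was 2.69 ± 0.10 (technical SE) in EBSS against RPMI, 6.43-fold, and -2.73 when SB202190 was added to EBSS, where EBSS was 6.65-fold higher. In EBSS with SB202190 against RPMI it was -0.05. The accession of its probe, the file's AI607873, matched no transcript of the RefSeq table used, so the name rests on its listed synonym.

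Ifi204, whose product p204 takes part in macrophage differentiation and in DNA sensing, read 12.05 and 11.74 in EBSS with SB202190, 14.00 and 14.15 in EBSS, and 12.24 and 12.28 in RPMI. Again EBSS stood apart from the other media. The ratio was 1.95 ± 0.13 in EBSS against RPMI, 3.86-fold, and -2.22 with SB202190 in EBSS. Its other 2 probes gave smaller ratios of the same signs. The probe at chr1:175585909-175585968 (mm8) stands for the gene; its neighbour at chr1:175585969-175586028 gave 0.89 in EBSS against RPMI and -1.31 when SB202190 was added to EBSS, and the probe at chr1:175592563-175592622 gave 0.47 and -0.39. With the median over its probes, Ifi204 was no longer counted in EBSS against RPMI, at 0.89.

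Ifi202b, which has HIN domains and no pyrin domain and is known as an inhibitor of the DNA sensor Aim2, read 12.02 and 12.04 in EBSS with SB202190, 13.77 and 13.64 in EBSS, and 12.95 and 12.96 in RPMI. Here the 3 media were separate in both dyes, with the inhibitor lowest. The ratio was 0.73 ± 0.13 in EBSS against RPMI, below the size needed, -1.70 for SB202190 in EBSS, where EBSS was 3.24-fold higher, and -0.97 in EBSS with SB202190 against RPMI, just short of it. Unlike Ifi207, it thus stood below its RPMI level with the inhibitor.

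Ifi203 and Ifi205 had the same pattern at a smaller size and were counted nowhere. Ifi203 gave 0.67 in EBSS against RPMI and -0.51 when SB202190 was added to EBSS, and Ifi205 0.54 and -0.47. With SB202190 against RPMI they stood at 0.15 and 0.08. Genes of this cluster are close copies: the probe that stands for Ifi205 and a probe of Ifi204 each list transcripts of Ifi204, Ifi205 and Ifi211, and the share of each gene in their signal was not tested. The probe that lists Ifi205 alone was well above background in no channel, so no separate reading of Ifi205 is given. The DNA sensor Aim2, of the same family, was above background in no channel.

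**Figure D3:**
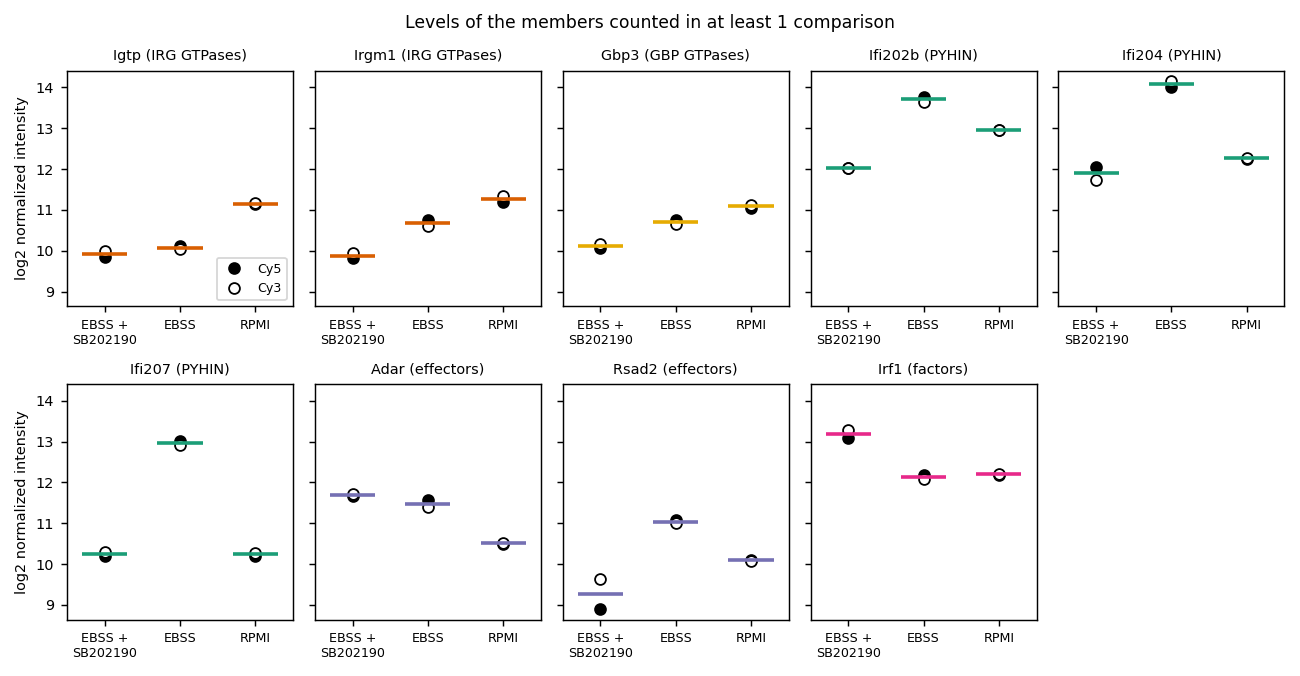
Log2 normalized intensity of the 9 members counted in at least 1 comparison, in EBSS with SB202190, EBSS and RPMI; filled points are Cy5, open points Cy3, and bars their mean. Ifi207 and Ifi204 are high in EBSS alone, Igtp, Irgm1 and Gbp3 are highest in RPMI, and Irf1 is highest with the inhibitor.

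The IRG and GBP GTPases ran another way: after loess, each measured one lay below 0 in every comparison, most clearly in EBSS with SB202190 against RPMI, with exceptions under other scalings given below. IRG proteins load onto the vacuoles around intracellular bacteria and parasites, where the effector members act and the regulatory GMS members Irgm1, Irgm2 and Igtp keep them in check, and the guanylate-binding proteins (GBPs) also gather on such vacuoles and on bacteria. All 4 measured IRG genes and both measured GBP genes lay below 0 in EBSS against RPMI, with medians of -0.48 and -0.23, although with median centring Irgm1 (0.28), Irgm2 (0.26), Gbp3 (0.49) and Gbp2 (0.42) turned positive while staying below the all-gene median of 0.81, and Gbp2 was also at about 0 with equal array spread (0.02) and with the scanner software's ratios. In EBSS with SB202190 against RPMI the medians were -0.89 and -0.61, with Gbp2 at 0.06 under median centring. Of these 6 genes, 1 was counted lower in EBSS against RPMI and 3 in EBSS with SB202190 against RPMI, where 2.82% and 2.43% of all genes were.

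Irgm1, which regulates the other IRG proteins and is needed for resistance to mycobacteria in mice, read 9.82 and 9.94 in EBSS with SB202190, 10.75 and 10.61 in EBSS, and 11.21 and 11.35 in RPMI. The media were separate in both dyes and stepped up in that order. In EBSS with SB202190 against RPMI its ratio was -1.49 ± 0.11, 2.80-fold higher in RPMI, made up of -0.85 for SB202190 in EBSS and -0.64 in EBSS against RPMI, neither of which reached the size needed. A second bright probe gave -1.42, -0.77 and -0.65 for the same comparisons. A dim probe, well above background in no channel, was flat.

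Igtp (Irgm3), another GMS regulator, read 9.84 and 9.99 in EBSS with SB202190, 10.11 and 10.05 in EBSS, and 11.14 and 11.17 in RPMI. RPMI stood apart, and the starved media lay close to each other. Its ratio was -1.29 ± 0.10 in EBSS with SB202190 against RPMI and -1.13 in EBSS against RPMI, where RPMI was 2.19-fold higher, and -0.16 for SB202190 in EBSS. With median centring Igtp was counted in neither comparison with RPMI, at -0.87 in EBSS with SB202190 and -0.28 in EBSS, the last being -1.09 relative to the all-gene median. Most of the Igtp difference from RPMI was present in EBSS alone.

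Gbp3 read 10.07 and 10.17 in EBSS with SB202190, 10.76 and 10.65 in EBSS, and 11.06 and 11.13 in RPMI. It stepped as Irgm1 did, with a ratio of -1.04 ± 0.11 in EBSS with SB202190 against RPMI, -0.61 for SB202190 in EBSS and -0.43 in EBSS against RPMI. Unlike Irgm1, it was no longer counted with median centring (-0.64), with equal spread between arrays (-0.88) or on the other 2 arrays alone (-0.99). Irgm2, the third GMS protein, followed the same order at -0.50, -0.18 and -0.32 and was not counted. Gbp2, known to be needed for inflammasome responses to some bacteria, was dim, at -0.18, -0.15 and -0.02. The scanner software put it at -0.61, -0.61 and 0.004.

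Ifi47 (Irg47) was dim: it was well above background on neither array with SB202190, on 1 in EBSS and on both in RPMI. Its level averaged 8.62 with SB202190 and 8.78 in RPMI, a difference of at least 1.11-fold. The scanner software's own ratios put it at -2.82 in EBSS with SB202190 against RPMI. They counted Ifi47 and Irgm2 (-1.04) lower as well, where 6.52% of all genes were. Of the MX GTPases, dynamin-like proteins that block influenza and other viruses, Mx2 was measured. It read 9.41 and 9.24 in EBSS with SB202190, 9.10 and 9.08 in EBSS, and 9.001 and 8.99 in RPMI, ratios of 0.35 in EBSS with SB202190 against RPMI, 0.21 for SB202190 in EBSS and 0.15 in EBSS against RPMI. Mx1 was well above background in 2 channels.

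Among the antiviral effectors, 15 genes were measured in each comparison. None was counted in EBSS against RPMI (all genes 4.48% higher and 2.82% lower), 1 was lower with SB202190 in EBSS (all genes 2.93%), and 1, Adar, was higher in EBSS with SB202190 against RPMI (all genes 1.47%). Their medians were -0.19, -0.07 and -0.29.

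Rsad2 (viperin), a radical SAM enzyme that makes an antiviral nucleotide, read 8.90 and 9.63 in EBSS with SB202190, 11.08 and 11.00 in EBSS, and 10.09 and 10.09 in RPMI. The media did not overlap, but the 2 dyes with SB202190 lay far apart. Its ratio was -1.66 ± 0.11 for SB202190 in EBSS, where EBSS was 3.17-fold higher, from -1.45 on the array with both media and -2.10 on the path through the other 2. The error is that of genes of like brightness, and the paths of Rsad2 lay further apart than it. In EBSS against RPMI it was 0.69, from paths of 0.91 and 0.26. Its other 2 probes were also highest in EBSS, at -0.82 and -0.52 for SB202190 in EBSS and 0.51 and 0.32 in EBSS against RPMI. With the median over probes Rsad2 was no longer counted. In EBSS with SB202190 against RPMI its ratio was -0.97. The other probes gave -0.31 and -0.195 there, each from paths of opposite sign. The scanner software's ratio for SB202190 in EBSS was -3.05.

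Adar, which edits adenosines in paired RNA, read 11.66 and 11.72 in EBSS with SB202190, 11.56 and 11.39 in EBSS, and 10.49 and 10.52 in RPMI. RPMI stood below both starved media, at a ratio of 1.12 ± 0.10 in EBSS with SB202190 against RPMI and 0.93 in EBSS against RPMI. Its other probe went the opposite way. That probe read 10.17 and 10.04 in EBSS with SB202190, 9.82 and 9.89 in EBSS, and 10.71 and 10.79 in RPMI, a ratio of -0.61 in EBSS with SB202190 against RPMI and -0.82 in EBSS against RPMI. The brighter probe lies at chr3:89839163-89839222 and the other at chr3:89836955-89837014 (mm8), and over both the median was 0.25, so no direction is given for the gene.

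Isg15, a ubiquitin-like modifier, Ifit1, which binds viral RNA ends, and Oasl1, which holds back Irf7 translation in mice, were among the members just below the size needed in EBSS with SB202190 against RPMI. Isg15 read 9.02 and 9.32 in EBSS with SB202190, 9.77 and 9.87 in EBSS, and 9.88 and 10.03 in RPMI, a ratio of -0.82 ± 0.11 in EBSS with SB202190 against RPMI and -0.63 with SB202190 in EBSS. The first came from paths of -1.01 and -0.46, the second from -0.45 and -0.99. The error is that of genes of like brightness, and the paths of Isg15 lay further apart than it. The file places its probe on chromosome 17 although RefSeq has the gene elsewhere, so what it reads is uncertain. Oasl1 read 8.88 and 9.03 in EBSS with SB202190, 9.24 and 9.33 in EBSS, and 9.88 and 9.89 in RPMI, a ratio of -0.92 against RPMI.

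Ifit1 was well above background in neither channel of EBSS with SB202190 (8.34 and 8.96) and in both channels of EBSS (9.34 and 9.25) and of RPMI (9.47 and 9.53). Its loop ratio was -0.995 in EBSS with SB202190 against RPMI, from -1.19 on the array with both media and -0.60 on the other path, and -0.57 for SB202190 in EBSS, from -0.37 and -0.96. The paths lay so far apart that no lower bound is given. These values moved with the processing: the scanner software's ratios were -4.62 for Ifit1, -1.72 for Isg15 and -2.04 for Oasl1 in EBSS with SB202190 against RPMI, and counted all 3 lower. Ifit2 and Ifit3, of the same family, were at -0.30 and -0.36 in the loop and at -0.86 and -1.45 by the scanner software. The scanner software's ratios counted Ifit3 lower there (all genes 6.52%), and Ifit2 in EBSS against RPMI (-1.56, all genes 9.21%).

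Ifi35 read 11.18 and 11.05 in EBSS with SB202190, 10.60 and 10.75 in EBSS, and 11.54 and 11.80 in RPMI. It was lowest in EBSS, at -0.89 in EBSS against RPMI and at 0.36 when SB202190 was added to EBSS, short of the size needed. It was counted lower in EBSS against RPMI with the scanner software's ratios (-1.18, all genes 9.21%). So it was without background correction (-1.07, all genes 4.56%) and on the other 2 arrays alone (-1.07, all genes 3.25%). Under median centring it became 0.12, below the all-gene median, and -0.20 when SB202190 was added. Ifitm3, which blocks virus entry at endosomal membranes, read 15.82 and 15.97 in EBSS with SB202190, 15.77 and 15.52 in EBSS, and 16.16 and 16.01 in RPMI. The same ratios were -0.55 and 0.28 for Ifitm3, with both signs turned under median centring (0.93 and -0.63). Oas2 had -0.49 for SB202190 in EBSS. Bst2 (tetherin), which holds budding virus at the cell surface, read 13.65 and 13.87 in EBSS with SB202190, 13.45 and 13.46 in EBSS, and 13.44 and 13.62 in RPMI. Eif2ak2, the kinase PKR, which halts translation, read 11.85 and 11.73 in EBSS with SB202190, 11.82 and 11.62 in EBSS, and 11.38 and 11.44 in RPMI. These media lay close together, and Bst2, Eif2ak2, Oasl2, Ifi44 and Isg20 stayed between -0.19 and 0.33 in every comparison.

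**Figure D4:**
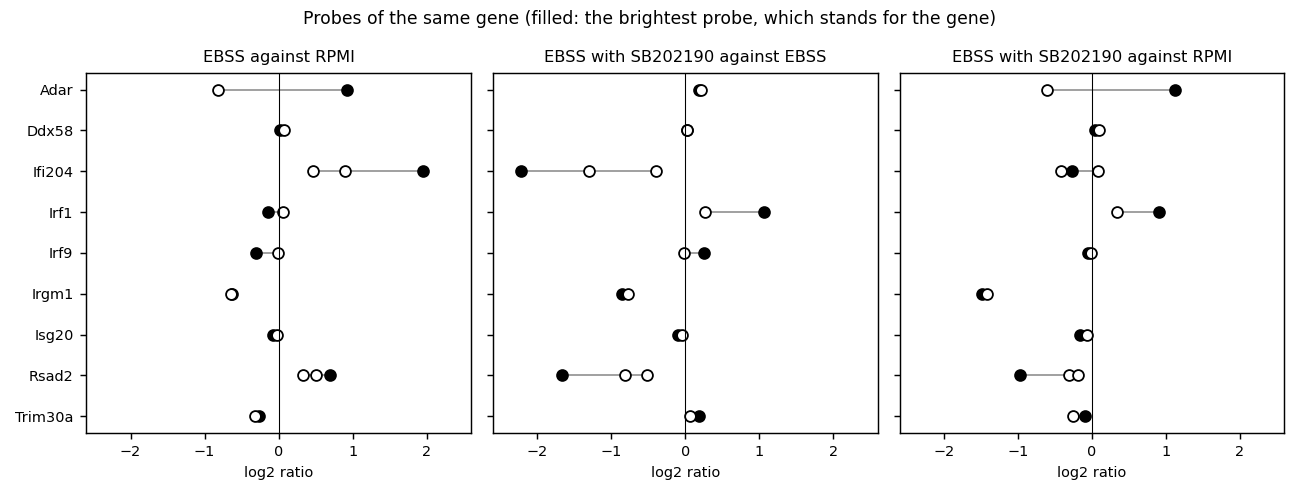
Log2 ratios of each probe for the members with more than 1 probe well above background in at least 4 channels; filled points are the brightest probe, which stands for the gene, and open points the others. The probes of Irgm1, Isg20 and Trim30a lie close together, those of Rsad2 spread on 1 side of 0, those of Ifi204 do so in the comparisons with EBSS but lie on both sides in EBSS with SB202190 against RPMI, and those of Adar lie on opposite sides in 2 panels.

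None of the 4 measured cytosolic sensors was counted, where 0.889% to 4.48% of all genes were in each comparison and direction. With so few genes, this does not set them apart from all genes. Dhx58 (LGP2), which tunes signalling by the other RNA helicases, read 9.51 and 9.44 in EBSS with SB202190, 9.23 and 9.15 in EBSS, and 9.99 and 10.11 in RPMI. RPMI was highest, at a ratio of -0.83 ± 0.11 in EBSS against RPMI. Dhx58 was counted lower there by the scanner software's ratios (-1.67, all genes 9.21%). The RNA helicases Ddx58 (RIG-I) and Ifih1 (MDA5) and the Z-nucleic-acid sensor Zbp1 stayed within -0.26 and 0.09 in all 3 comparisons.

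Of the 4 factors, Irf1 alone was counted, and it was the 1 member counted higher with SB202190 in EBSS, where 0.889% of all genes were. Irf1, which drives many interferon gamma targets, read 13.08 and 13.28 in EBSS with SB202190, 12.18 and 12.07 in EBSS, and 12.18 and 12.21 in RPMI. The inhibitor channels lay above the other 4, which overlapped. The ratio was 1.06 ± 0.12 for SB202190 in EBSS, 2.08-fold, and 0.91 in EBSS with SB202190 against RPMI. Its dimmer second probe gave 0.27 and 0.33, and on the path through the other 2 arrays alone the ratio was 0.98, below the size needed. Relative to the all-gene median under median centring it was 0.77 for SB202190 in EBSS.

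Stat2, a subunit of the ISRE-binding complex, was next, at 10.00 and 9.60 in EBSS with SB202190, 9.11 and 9.06 in EBSS, and 9.31 and 9.27 in RPMI. It was highest with the inhibitor, at 0.65 ± 0.11 for SB202190 in EBSS, from paths of 0.48 and 0.99. These paths too lay further apart than the error, which is that of genes of like brightness. By the scanner software's ratio of 1.75 Stat2 was counted higher, where 6.69% of all genes were. Irf9, its partner, gave 0.25 for SB202190 in EBSS, and Irf7, the factor that amplifies type I interferon, gave 0.03. Among the brakes, Usp18, which removes Isg15 from proteins and dampens Ifnar2 signalling, gave -0.57 for SB202190 in EBSS and 0.05 in EBSS against RPMI. Socs1, an inhibitor of Janus kinases, and Trim30a, which restrains Toll-like receptor signalling, lay between -0.27 and 0.18.

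Other genes of the pathway were taken from lists chosen with earlier results of these data known. Of 12 ligand and receptor genes, 5 were measured, all of them receptor chains. The probes of Ifna1, Ifna2, Ifna4 and Ifng were well above background in no channel, and those of Ifnb1 and Ifnl3 in 1 of 6 and 3 of 6. No receptor was counted when EBSS was set against RPMI or when SB202190 was added to EBSS, and Ifngr2 was lower in EBSS with SB202190 against RPMI, at -1.45 (2.43% of all genes were counted lower there). Its second probe gave -0.57. Ifnar1 read 11.36 and 11.34 in EBSS with SB202190, 11.08 and 11.03 in EBSS, and 11.98 and 11.91 in RPMI, a ratio of -0.90 in EBSS against RPMI.

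Among kinases and factors, 12 of 14 were measured. In EBSS against RPMI, 1 was higher (4.48% of all genes), the kinase Tbk1 (1.11), and 2 were lower (2.82% of all genes), the macrophage factors Irf5 (-2.14) and Irf8 (-2.01, with -1.15 at its other probe). For SB202190 in EBSS, Irf3 was higher (1.15, with 0.16 at its other probe), where 0.889% of all genes were. In EBSS with SB202190 against RPMI, Irf5 (-2.19) and Irf8 (-1.07, with -0.755 at its other probe) were lower, where 2.43% of all genes were. The Janus kinases Jak1, Jak2 and Tyk2 lay between -0.14 and 0.29 in all 3 comparisons.

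Of 13 sensor and adaptor genes, 12, 11 and 11 were measured in the 3 comparisons. Tlr4, the lipopolysaccharide receptor, was higher in EBSS than in RPMI (1.36, all genes 4.48%) and lower with SB202190 than in EBSS (-2.00, all genes 2.93%), and no other was counted. Like Ifi207, it was highest in EBSS: it read 10.06 and 10.16 in EBSS with SB202190, 12.15 and 12.08 in EBSS, and 10.71 and 10.71 in RPMI. Of 9 measured feedback inhibitors, 2 were lower in EBSS than in RPMI (2.82% of all genes), Socs3 (-1.36) and the phosphatase Ptpn6 (-1.81, with -0.63 at its other probe), both were lower in EBSS with SB202190 than in RPMI (-1.46 and -1.35, where 2.43% of all genes were), and none was counted for SB202190 in EBSS.

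A further 43 interferon-stimulated genes were on the arrays, and their counts were near the shares of all genes, which were 4.48% higher in EBSS against RPMI, 2.93% lower for SB202190 in EBSS and 2.43% lower in EBSS with SB202190 against RPMI. In EBSS against RPMI, 1 of 35 measured genes was higher (Nampt, 1.05). For SB202190 in EBSS, 1 of 33 was lower, Cxcl10, the interferon-induced chemokine IP-10, and it was also the 1 of 35 counted lower in EBSS with SB202190 against RPMI. Cxcl10 read 9.07 and 9.75 in EBSS with SB202190, 11.99 and 11.64 in EBSS, and 11.18 and 11.07 in RPMI, ratios of -2.32 and -1.93. The medians of this list were -0.07, 0.02 and -0.04. Since RNA came from whole cultures, fewer cells expressing a gene and less RNA per cell cannot be told apart for any of these values.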

How the data were processed

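RNA of 3 media was read on 3 two-colour Agilent arrays: RPMI in Cy5 with EBSS in Cy3, EBSS in Cy5 with EBSS plus SB202190 in Cy3, and EBSS plus SB202190 in Cy5 with RPMI in Cy3, per the labels. The design text leaves unclear whether EBSS was mixed into RPMI, so media are those of the source names. No source used here says if EBSS held a vehicle. Scans were quantified in Agilent Feature Extraction 9.5.3.1, per the submitters' processing notes. The deposited mean and background intensities are not normalized, per the file headers. The deposited log10 ratios of Cy5 over Cy3 come from background-subtracted, dye-normalized intensities, per the file headers, and the authors' series table was found to hold their log2 values. Other deposited columns mark controls, outliers, saturation and signal well above background, per the file headers.

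Mean intensities were corrected with normexp (offset 50) and normalized within arrays by loess in limma 3.58.1 (R 4.3.3), with control spots at weight 0. Each array lost its 1639 control spots and 136 to 178 outliers, none had saturated spots, and repeated spots of a probe were averaged. Names came from accessions in a RefSeq table of GRCm38.p6. Probe positions are those of the files (mm8), and gene starts and promoter sequences are RefSeq's (GRCm38.p6). The brightest probe stands for a gene. Log2 ratios are least-squares estimates over the loop, and their technical standard error comes from the sum around the loop in 30 bins of intensity. With 1 sample per medium no p-value was computed, and the number of arrays limits the precision. A gene's lower bound sets a medium in which it is not well above background at the higher of its own signal and the lowest signal well above background per channel, which is open to dye bias. The estimate was tested on simulated data. Members and lists were chosen with earlier results of these data known. Members counted in any comparison, and the 5 highest and 5 lowest of each comparison, were named with their values, with others as examples. The result of 1 gene of the pathway lists is not reported here.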

Additional observations from a re-analysis of the deposited data

How the results depend on the processing

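With median centring in place of loess the member medians became 0.52 (EBSS against RPMI), -0.49 (SB202190 in EBSS) and 0.14 (EBSS with SB202190 against RPMI), beside all-gene medians of 0.81, -0.45 and 0.34. In the same order, 10, 0 and 1 members were then counted higher and 0, 5 and 1 lower. Of all measured genes, 35.8%, 0.154% and 1.28% were then higher and 0.194%, 6.58% and 0.759% lower. The scanner software's ratios, and likewise the authors' series table, gave medians of -0.24, -0.05 and -0.38, with 4, 2 and 2 members higher and 4, 8 and 11 lower, but 8.10%, 6.69% and 3.996% of all measured genes were then counted higher and 9.21%, 6.60% and 6.52% lower. Without background correction the medians were -0.22, -0.08 and -0.30. Then 3 members were lower in EBSS against RPMI (all genes 4.56%), 2 higher for SB202190 in EBSS (2.09%) and 8 lower in EBSS with SB202190 against RPMI (3.42%). With equal spread between arrays, 4 were higher in EBSS against RPMI (all genes 5.37%) and 0 in EBSS with SB202190 against RPMI (0.708%). An offset of 16 gave 5 lower in EBSS with SB202190 against RPMI (all genes 2.61%). With the median over all probes, 1, 0 and 0 were higher (all genes 2.91%, 0.547% and 0.978%). The array with both media alone gave 7 lower in EBSS with SB202190 against RPMI (all genes 2.54%). The other 2 arrays alone gave 2 lower in EBSS against RPMI (3.25%) and 0 higher for SB202190 in EBSS (1.74%). With the smaller size of 0.58, 5, 2 and 2 were higher and 5, 7 and 9 lower. Of all genes, 10.85%, 5.14% and 5.31% were then higher and 8.99%, 8.95% and 7.40% lower. The 2 filters on dim probes moved none of these counts. The cause of these moves was not tested. Ifi207 was counted in both comparisons with EBSS, and Irgm1 lower in EBSS with SB202190 against RPMI, under each alternative. Signal over background limits Ifit1, Ifit3, Ifi47, Gbp6 and Mx1. No paired analysis was possible because each medium is 1 sample.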
